A study of Rattus norvegicus with 16 samples.

Results

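The p53 target genes described here are 9 genes that the transcription factor p53 is known to switch on, namely Cdkn1a, Btg2, Gadd45a, Mdm2, Ccng1, Bax, Bbc3, Perp and Sesn2. They were chosen by name because Pdrg1, the gene silenced in these cells, is named for its regulation by p53 and DNA damage. A member was every probe whose gene name on the array was one of the 9, which gave 10 probes for 8 genes out of 30367 probes and 26269 gene names. Sesn2 carried the older name RGD1566319 and was matched through its accession, which added 1 probe. The rule used no measured value.

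The cells were H35, a rat hepatoma line, and all carried SureSilencing shRNA plasmids delivered with Lipofectamine. CN-10 was a stable clone with the negative control shRNA plasmid, 4-18 was a stable clone with shRNA4 against Pdrg1, 3-44 was a stable clone with shRNA3, and shRNA3T was a pool of cells transfected transiently with shRNA3 and then enriched. G418, an antibiotic that kills cells without the plasmid, was started 48 h after transfection at 1.8 mg/ml for 2 weeks in all 4 groups, and the stable clones had a further 2 weeks at 4 mg/ml. Each group had 4 replicates, each hybridised to a one-color Agilent array that reads the Cy3 signal of a single RNA, and all values below are log2 normalized intensities unless stated otherwise. The control cells therefore also carried a plasmid and had been under G418, each stable group was 1 clone, and comparisons with CN-10 share the same 4 control arrays. The replicates are labelled as biological, but it is not stated whether they were separate cultures, so p-values measure the spread between these samples.

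p53 is a transcription factor that is kept low by MDM2, the ubiquitin ligase that marks it for degradation, and that accumulates after DNA damage and other stress. It then raises genes that stop the cell cycle, genes that start apoptosis, genes that adjust metabolism, and genes that switch p53 itself off again, Mdm2 among them. In liver cells the same targets also respond to nutrient and redox stress, in part without p53.

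The sequences shown next are those of the members whose levels moved most between groups or that carry a p53 motif at the promoter, so that the values can be read beside the regulatory sequence. They are RefSeq promoter windows on the GRCr8 build, 250 bases before to 50 bases after the start of the gene, written on the strand of the gene, with capitals marking a match to the p53 half-site, the 10-base motif that a pair of p53 molecules contacts. The windows lie at chr20:7150682-7150981 for Cdkn1a (plus strand), chr4:97486750-97487049 for Gadd45a (minus strand), chr10:25684827-25685126 for Ccng1 (minus strand), chr13:48087641-48087940 for Btg2 (minus strand) and chr5:150005206-150005505 for Sesn2 (minus strand).
Cdkn1a: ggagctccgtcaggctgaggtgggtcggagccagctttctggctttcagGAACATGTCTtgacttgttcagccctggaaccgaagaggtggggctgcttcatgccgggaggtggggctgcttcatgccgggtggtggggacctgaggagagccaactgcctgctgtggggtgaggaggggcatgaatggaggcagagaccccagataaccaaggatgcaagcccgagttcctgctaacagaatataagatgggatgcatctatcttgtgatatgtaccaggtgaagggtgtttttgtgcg
Gadd45a: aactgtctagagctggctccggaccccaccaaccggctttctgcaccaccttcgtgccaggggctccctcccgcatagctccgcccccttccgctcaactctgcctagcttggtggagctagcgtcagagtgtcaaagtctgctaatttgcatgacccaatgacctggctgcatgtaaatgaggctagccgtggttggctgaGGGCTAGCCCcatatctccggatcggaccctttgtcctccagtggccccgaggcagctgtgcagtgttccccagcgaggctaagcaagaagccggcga
Ccng1: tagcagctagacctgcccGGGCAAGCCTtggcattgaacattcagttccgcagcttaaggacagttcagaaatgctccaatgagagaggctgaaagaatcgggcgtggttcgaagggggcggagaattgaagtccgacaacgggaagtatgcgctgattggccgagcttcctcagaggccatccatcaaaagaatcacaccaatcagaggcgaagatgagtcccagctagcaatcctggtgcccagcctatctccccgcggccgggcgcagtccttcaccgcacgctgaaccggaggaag
Btg2: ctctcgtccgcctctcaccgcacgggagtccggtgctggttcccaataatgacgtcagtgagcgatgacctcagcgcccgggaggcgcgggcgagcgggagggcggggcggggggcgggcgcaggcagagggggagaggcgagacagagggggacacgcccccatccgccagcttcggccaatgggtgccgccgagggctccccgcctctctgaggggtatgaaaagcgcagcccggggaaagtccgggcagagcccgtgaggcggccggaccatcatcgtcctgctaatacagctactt
Sesn2: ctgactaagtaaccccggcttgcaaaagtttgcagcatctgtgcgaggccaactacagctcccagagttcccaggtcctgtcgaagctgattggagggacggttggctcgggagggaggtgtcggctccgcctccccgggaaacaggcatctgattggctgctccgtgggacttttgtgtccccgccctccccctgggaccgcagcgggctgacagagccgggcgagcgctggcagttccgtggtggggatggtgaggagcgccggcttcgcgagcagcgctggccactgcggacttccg
The half-site was found at base -201 in Cdkn1a (GAACATGTCT), -48 in Gadd45a (GGGCTAGCCC) and -232 in Ccng1 (GGGCAAGCCT). The motif pattern is the same on both strands, so every match to it reads on both. The half-site was present in 3 of the 7 members with a window and in 7.98% of all 33469 windows of this length. The GC box GGGCGG, searched on both strands, was in 6 of the 7 members, the exception being Cdkn1a, and in 33.1% of all windows. The TATA box TATAAA was in 0 of 7 and in 14.2% of all windows. Bax and Bbc3 had no window here. A match describes letters only.

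Pdrg1, a prefoldin-like protein and the target of both hairpins, was lower in every silenced library than in any CN-10 library. The 4 CN-10 arrays read 13.41, 13.88, 13.51 and 13.77, and those of 4-18 read 11.57, 13.33, 13.34 and 13.25. The arrays of 3-44 read 11.89, 12.86, 12.90 and 12.95, and those of shRNA3T 12.39, 12.90, 12.97 and 12.90. Replicate 1 was the lowest in each group, and in the silenced groups it lay well apart from the other three. With all arrays the log2 difference from CN-10 was -0.77 in 4-18 (limma adjusted p = 0.129), -0.99 in 3-44 (0.105) and -0.85 in shRNA3T (0.143), SE 0.34 in each, while the exact two-sided permutation p was 0.0286 in each, the smallest that 4 arrays against 4 can give. In bulk RNA, fewer cells that express a gene and less of its RNA per cell cannot be told apart. Leaving out replicate 1 of every group, a choice made after seeing the data, gave -0.41 (0.00659), -0.81 (0.000302) and -0.79 (0.000208). With replicate number as a block in the limma fit of all arrays, the adjusted p was 0.0175, 0.0108 and 0.0183.

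The 4 groups occupied 4 slides, 1 per group, and that of 4-18, scanned on a different day, was the dimmest, with 53.1% to 64.1% of spots well above background against 64.7% to 74.3% on the others, so a slide effect cannot be told apart from a group effect. Of 9 hepatocyte markers, 7 were well above background on all 16 arrays, albumin among them at 17.1 to 17.3 in the 4 groups. Of the 9, 1 rose and 4 fell in 4-18, 3 rose in 3-44, and 3 rose and 1 fell in shRNA3T. Of all probes, 11.6% were higher and 12% lower in 4-18, 3.48% and 4.37% in 3-44, and 5% and 6.85% in shRNA3T. Ttr averaged 13.76 in CN-10 against 16.69 in 4-18, 16.6 in 3-44 and 16.14 in shRNA3T, and Apoa1 10.16 against 8.04, 12.34 and 10.19. Markers of other cell types at background on all 16 were Dcn for fibroblasts, Ptprc for leukocytes and Pecam1 and Tek for endothelium, whereas Col1a1 and Cdh5 were above it on 16 arrays, and Cd68 and Csf1r on 15. Of these other markers, 1 for leukocytes fell in 4-18, 1 for fibroblasts fell in 3-44 and 1 for fibroblasts rose in shRNA3T. The summed level of the fibroblast markers was 8.90 to 9.18 in CN-10, 9.01 to 9.24 in 4-18, 8.93 to 9.20 in 3-44 and 9.18 to 9.40 in shRNA3T, and the part of either marker list in the results was not tested.

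The differences from CN-10 that passed the test lay in 4 members. Gadd45a was lower with shRNA3, in the clone and in the pool alike, Btg2 was higher in the same groups, and Sesn2 and the second Mdm2 probe were higher in 4-18. Counting 1 probe per gene, the brighter of the pair for Cdkn1a and Mdm2, 1 of the 9 members passed in 4-18, beside 23.6% of all probes. This was Sesn2, so 1 was higher (11.6% of probes) and 0 lower (12%). In 3-44, 2 of 9 passed, beside 7.85% of all probes, with Btg2 higher (3.48% of probes) and Gadd45a lower (4.37%). In shRNA3T 2 of 9 passed, beside 11.9% of all probes, again Btg2 higher (5%) and Gadd45a lower (6.85%). With at least a 2-fold change the counts were 0, 0 and 1, the last being Btg2, beside 5.91%, 1.4% and 2.29% of all probes. Groups did not overlap for 2 members in each comparison, beside 23%, 16.1% and 21.9% of probes. The 9 members had a median log2 difference of -0.20 in 4-18, 0.05 in 3-44 and 0.01 in shRNA3T, beside 0.01, -0.00 and -0.01 for the whole array.

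**Figure D1:**
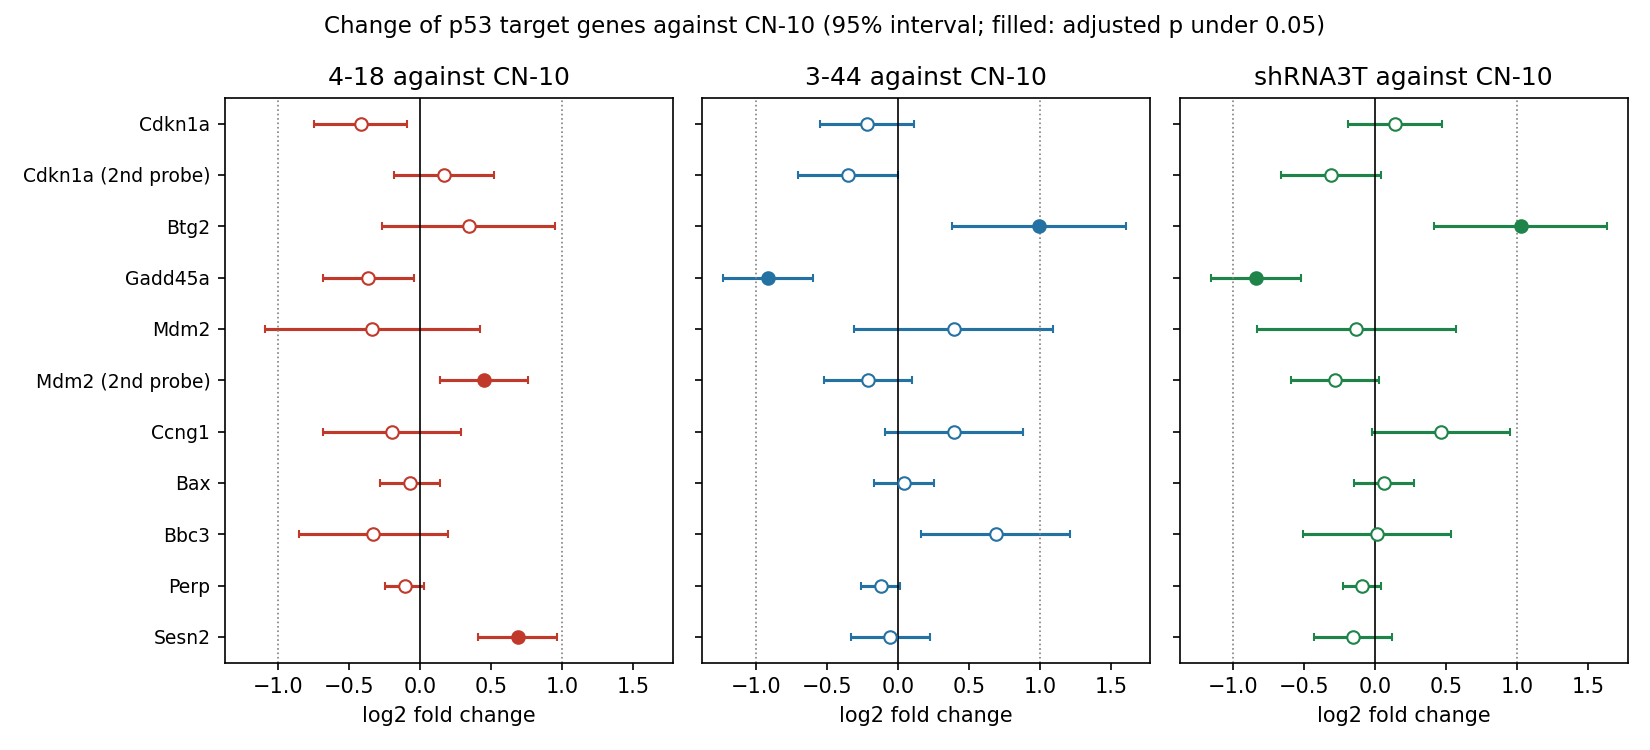
Log2 fold change from CN-10 (horizontal axis) of each member probe in the 4-18, 3-44 and shRNA3T groups, with 95% intervals; filled points have an adjusted p under 0.05 and dotted lines mark a 2-fold change. Gadd45a lies to the left at -0.91 and -0.84 in 3-44 and shRNA3T, Btg2 to the right at 0.99 and 1.02, and Sesn2 to the right in 4-18 at 0.68.

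Gadd45a encodes a small stress protein that binds PCNA and CDK1 and takes part in growth arrest and DNA repair. Its probe (chr4:96650454-96650513, minus strand, rn4) read 11.37, 11.87, 11.80 and 11.96 in CN-10 and 11.56, 11.25, 11.44 and 11.29 in 4-18. It read 10.42, 10.93, 11.04 and 10.95 in 3-44 and 10.96, 11.06, 10.95 and 10.66 in shRNA3T. All 8 libraries with shRNA3 were below all CN-10 and all 4-18 libraries, and 4-18 overlapped CN-10 through the lowest control. Gadd45a fell by 46.9% in 3-44 (log2 -0.91, SE 0.15, limma adjusted p = 0.00125) and by 44.1% in shRNA3T (-0.84, SE 0.15, adjusted p = 0.00153). In 4-18 the difference was -0.37 (adjusted p = 0.0943). It passed without replicate 1 of CN-10 (-0.49, 0.0209) or of 3-44 (-0.36, 0.0456), and with the processed signal (-0.59, 0.0116). It also passed without replicate 1 of every group (-0.55, 0.00243) and on the unscaled deposited values (-1.08). On those deposited values 7.36% of all calls in 4-18 against CN-10 were higher, against 49.2% as reported.

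The order of the Gadd45a means was CN-10, 4-18, shRNA3T, 3-44 from high to low. The clone and the pool with shRNA3 differed by -0.07, with a 95% interval of -0.39 to 0.25, whereas 4-18 was above 3-44 by 0.55 (limma adjusted p = 0.0155) and above shRNA3T by 0.47 (0.036). The latter was lost without replicate 1 or 3 of 4-18 or replicate 1, 3 or 4 of shRNA3T (adjusted p 0.0564 to 0.118). With the processed signal both were lost (0.33, adjusted p = 0.135, and 0.41, 0.0554), and with array weights the first was (0.43, 0.0546). On the deposited values, the only setting with no scaling between arrays, 4-18 was instead lower by -0.04 and -0.23. In that setting 8.88% and 5.32% of all calls were higher in 4-18, against 54.8% and 55.5% as reported. Every other processing kept 4-18 above both shRNA3 groups. The fall in 3-44 and in shRNA3T passed in 13 of 14 other processings each and without any single array, the exception being the unscaled values (-1.04, adjusted p = 0.131, and -0.85, adjusted p = 0.204). Without replicate 1 of every group it was -0.90 (0.000376) and -0.98 (0.000129).

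Btg2 encodes an antiproliferative protein that recruits the deadenylase complex and delays entry into S phase. Its probe (chr13:47027022-47027081, minus strand, rn4) read 10.55, 10.66, 11.56 and 11.04 in CN-10 and 11.24, 10.66, 11.80 and 11.48 in 4-18. It read 12.42, 12.12, 11.12 and 12.13 in 3-44 and 11.88, 12.02, 12.13 and 11.88 in shRNA3T. Every shRNA3T library was above every CN-10 library, and 3-44 overlapped CN-10 through its replicate 3. Btg2 rose 1.99-fold in 3-44 (log2 0.99, SE 0.29, limma adjusted p = 0.0456) and 2.03-fold in shRNA3T (1.02, SE 0.29, adjusted p = 0.0288), and in 4-18 the difference was 0.34 (0.453).

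The rise of Btg2 was near the threshold. It passed in 5 of 14 other processings in 3-44 (0.66 to 1.00) and in 9 of 14 in shRNA3T (0.91 to 1.04). In 3-44 it was kept only without replicate 3 of CN-10, replicate 3 of 3-44, or replicate 2 or 3 of 4-18, and otherwise leaving out 1 array gave an adjusted p of 0.0529 to 0.136. In shRNA3T it was lost without replicate 1, 2 or 4 of CN-10 or replicate 2, 3 or 4 of shRNA3T (0.051 to 0.0914). Without replicate 1 of every group the difference was 0.70 in 3-44 (adjusted p = 0.272) and 0.91 in shRNA3T (0.112). 3-44 and shRNA3T differed by -0.03. Between the clones, 4-18 was lower than 3-44 by -0.65 (0.123), which passed without replicate 3 of 3-44 (-0.93, 0.0193).

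Cdkn1a encodes p21, the inhibitor of cyclin-dependent kinases that holds cells in G1 and the best known p53 target. Its brighter probe (chr20:7386596-7386655, plus strand, rn4) read 14.17, 13.97, 14.06 and 13.86 in CN-10 and 13.83, 13.70, 13.04 and 13.82 in 4-18. It read 14.06, 13.62, 13.85 and 13.66 in 3-44 and 14.30, 14.10, 14.14 and 14.09 in shRNA3T. The 4-18 libraries lay below all controls, most of all replicate 3, and the other groups overlapped CN-10. The log2 difference was -0.42 in 4-18 (SE 0.15, limma adjusted p = 0.0627), -0.22 in 3-44 (0.499) and 0.14 in shRNA3T (0.701). The first passed without replicate 1 of 4-18 (-0.50, 0.0426) or its replicate 4 (-0.49, 0.0432), was -0.23 (0.151) without its replicate 3, and over 14 other processings the value ran from -1.17 to -0.01 and passed in 5. 4-18 was below shRNA3T by -0.56 (limma adjusted p = 0.0171), a call lost in 3 of 14 other processings, over which the value ran from -1.26 to -0.04.

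The second Cdkn1a probe (chr20:7385536-7385595, plus strand, rn4) gave another order. It read 14.10, 13.95, 13.43 and 13.64 in CN-10, 14.33, 13.90, 13.84 and 13.70 in 4-18, 13.71, 13.13, 13.31 and 13.55 in 3-44, and 13.49, 13.43, 13.32 and 13.63 in shRNA3T. Here 4-18 was the highest group and overlapped CN-10, with differences of 0.17 (limma adjusted p = 0.542), -0.35 (0.258) and -0.31 (0.295). 4-18 was above 3-44 by 0.52 (0.035) on this probe, against -0.20 (0.394) on the brighter one, and on the unscaled deposited values that 0.52 became -0.10. The call was lost without replicate 2 or 3 of 3-44 or replicate 1 or 2 of 4-18 (adjusted p 0.0522 to 0.11), and in 4 of 13 other processings that kept its sign, such as the processed signal (0.40, 0.124). The readings of the 2 probes had a Pearson correlation of -0.11 over the 16 arrays, which share hybridisation and normalization. No direction for Cdkn1a as a gene follows from probes that disagree.

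**Figure D2:**
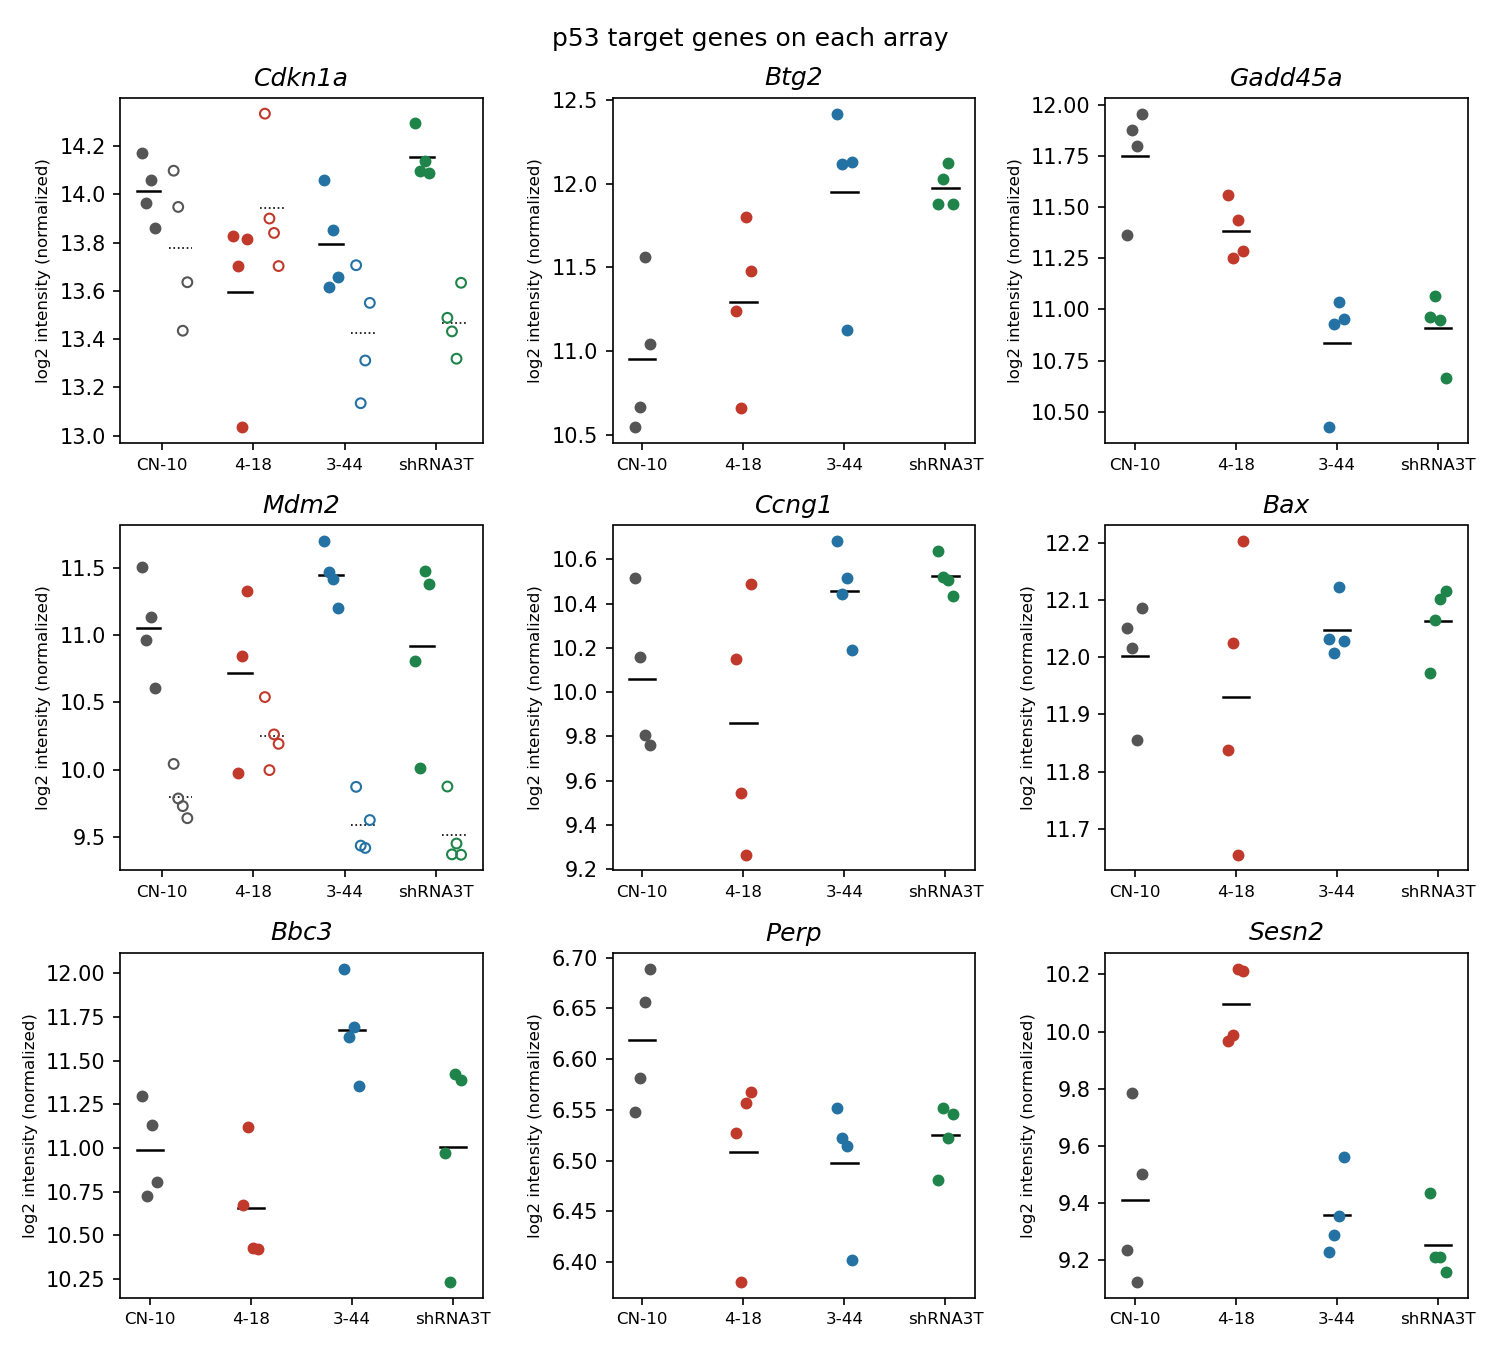
Log2 normalized intensity (vertical axis, a different range in each panel) of the 9 members on each of the 4 arrays of CN-10, 4-18, 3-44 and shRNA3T; filled points are the representative probe with a solid bar at the group mean, open points the second probe of Cdkn1a and Mdm2 with a dotted bar. All 8 Gadd45a readings with shRNA3 sit between 10.42 and 11.06, under the lowest CN-10 reading of 11.37, and the 4 Sesn2 readings of 4-18 sit at 9.97 or more, above all others.

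Mdm2 and Ccng1 belong to the feedback arm. Mdm2 encodes the ligase that degrades p53, and its brighter probe (chr7:56996880-56996939, minus strand, rn4) read 11.51, 10.97, 11.14 and 10.61 in CN-10, 9.97, 10.85 and 11.33 in 4-18, where the spot of replicate 1 was an outlier and set aside, 11.70, 11.47, 11.42 and 11.20 in 3-44, and 10.81, 10.02, 11.48 and 11.38 in shRNA3T. All groups overlapped, with differences of -0.34 (limma adjusted p = 0.562), 0.39 (0.582) and -0.13 (0.902). The value in 4-18 was 0.03 without replicate 2 of 4-18, -0.65 without its replicate 4 and -0.03 with the outlier spot kept.

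The second Mdm2 probe, whose target is split over chr7:57005501-57005835 (minus strand, rn4), is shown because it is the one that moved.
Mdm2 A_43_P16885: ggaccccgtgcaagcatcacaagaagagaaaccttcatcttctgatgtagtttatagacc
It read 10.04, 9.79, 9.73 and 9.64 in CN-10, 10.54, 10.00, 10.26 and 10.19 in 4-18, 9.87, 9.43, 9.42 and 9.62 in 3-44, and 9.87, 9.37, 9.45 and 9.37 in shRNA3T. Its 4-18 values were high, and 1 control was above the lowest of them. The probe rose 1.37-fold in 4-18 (log2 0.45, SE 0.15, limma adjusted p = 0.0358), and 4-18 was above 3-44 by 0.66 (0.0039) and above shRNA3T by 0.73 (0.00198). These differences were lost on the unscaled values (0.18 and 0.10), and the first also with the processed signal (0.24, adjusted p = 0.254). Against CN-10 the call was lost without replicate 2, 3 or 4 of CN-10 or replicate 1, 3 or 4 of 4-18 (adjusted p 0.0523 to 0.111), with the processed signal (0.33, 0.113) and with only the arrays of the comparison in the fit (0.0514). On the unscaled deposited values the difference was -0.16. The 2 Mdm2 probes had a correlation of -0.07 over the arrays that measured both.

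Ccng1 encodes cyclin G1, which recruits a phosphatase to MDM2. Its probe, split over chr10:25778638-25778912 (minus strand, rn4), read 10.52, 10.16, 9.81 and 9.76 in CN-10, 10.15, 9.54, 9.26 and 10.49 in 4-18, 10.68, 10.44, 10.51 and 10.19 in 3-44, and 10.64, 10.52, 10.51 and 10.43 in shRNA3T. All groups overlapped CN-10, and the differences were -0.20 (limma adjusted p = 0.602), 0.40 (0.384) and 0.46 (0.246), SE 0.23. 4-18 was below 3-44 by -0.60 (0.0772) and below shRNA3T by -0.66 (0.0531). Without replicate 4 of 4-18 both passed (-0.82, 0.0115, for the first, and adjusted p = 0.0077 for the second), and the second also passed without replicate 1 of CN-10 (0.0418) or of 4-18 (0.0445). Over 14 other processings the first passed in 2 and the second in 5. The difference of shRNA3T from CN-10 passed in 1 of them (adjusted p = 0.0377).

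Of the apoptotic members, Bax did not pass against CN-10 and Bbc3 separated the clones. Bax, the effector that opens the mitochondrial outer membrane, has 10 spots on each array and read 11.85 to 12.09 in CN-10, 11.65 to 12.20 in 4-18, 12.01 to 12.12 in 3-44 and 11.97 to 12.12 in shRNA3T. Its differences from CN-10 were -0.07 with a 95% interval of -0.28 to 0.14, 0.05 with -0.17 to 0.26, and 0.06 with -0.15 to 0.27. These intervals lie within a 2-fold change, but on the unscaled deposited values Bax passed as lower in 4-18 (-0.81, adjusted p = 0.0284). On those values 7.36% of all calls in 4-18 against CN-10 were higher.

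Bbc3 encodes PUMA, a BH3-only protein that frees BAX from its inhibitors. It read 11.30, 10.73, 11.13 and 10.80 in CN-10, 10.67, 11.12, 10.43 and 10.42 in 4-18, 12.03, 11.64, 11.69 and 11.35 in 3-44, and 10.97, 10.23, 11.42 and 11.39 in shRNA3T. 3-44 lay above all CN-10 and all 4-18 libraries, while shRNA3T, with the same hairpin, spanned the controls. Against CN-10 the differences were -0.33 (limma adjusted p = 0.386), 0.69 (0.114) and 0.01 (0.989), SE 0.24. That of 3-44 passed without replicate 2 of shRNA3T (0.0418) and in 1 of 14 other processings (0.0428). That of 4-18 passed only on the unscaled deposited values (-1.02, 0.0256), where 7.36% of all calls were higher. 4-18 was 2.03-fold below 3-44 (log2 -1.02, adjusted p = 0.00709), a call kept without any single array. It was lost with the processed signal (-0.55, adjusted p = 0.128) and without replicate 1 of every group (-0.90, 0.0545).

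Perp, a membrane protein of p53-driven apoptosis and of desmosomes, was near background. It read 6.55 to 6.69 in CN-10, 6.38 to 6.57 in 4-18, 6.40 to 6.55 in 3-44 and 6.48 to 6.55 in shRNA3T, and it was called well above background on 4 arrays of CN-10, 3 of shRNA3T and 0 of 4-18 and 3-44. The groups overlapped, and none of its differences from CN-10 passed (limma adjusted p 0.246 to 0.445). Perp was too dim for a fold to be read as a size of change, and its log2 values below only show the dependence on processing. Its value turned with the processing: in 4-18 it passed as higher with normexp scaled to the 75th percentile (0.98) and on bright probes (0.97), and as lower with the processed signal (-0.76), which also gave -0.96 in shRNA3T.

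Sesn2 encodes sestrin 2, a stress sensor that restrains mTORC1 and supports antioxidant enzymes. Its probe (chr5:152655891-152655950, plus strand, rn4) is shown since it was the member with the clearest change in 4-18. The promoter window above lies on the minus strand of GRCr8, and this difference in strand between the builds was not resolved.
Sesn2 A_44_P802511: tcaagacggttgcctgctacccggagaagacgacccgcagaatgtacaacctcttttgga
It read 9.24, 9.79, 9.12 and 9.50 in CN-10 and 9.97, 9.99, 10.22 and 10.21 in 4-18. It read 9.23, 9.29, 9.35 and 9.56 in 3-44 and 9.44, 9.21, 9.21 and 9.16 in shRNA3T. Every 4-18 library was above every other library, and the other groups lay over each other. Sesn2 rose 1.61-fold in 4-18 (log2 0.68, SE 0.13, limma adjusted p = 0.00117), against -0.05 in 3-44 (0.887) and -0.16 in shRNA3T (0.565). 4-18 was above 3-44 by 0.74 (adjusted p = 0.000716) and above shRNA3T by 0.84 (0.000261), both lost on the unscaled values (0.23 and 0.17). The rise in 4-18 was kept without any single array (0.59 to 0.81), in 13 of 14 other processings (0.03 on the unscaled values) and without replicate 1 of every group (0.67, 0.00665).

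**Figure D3:**
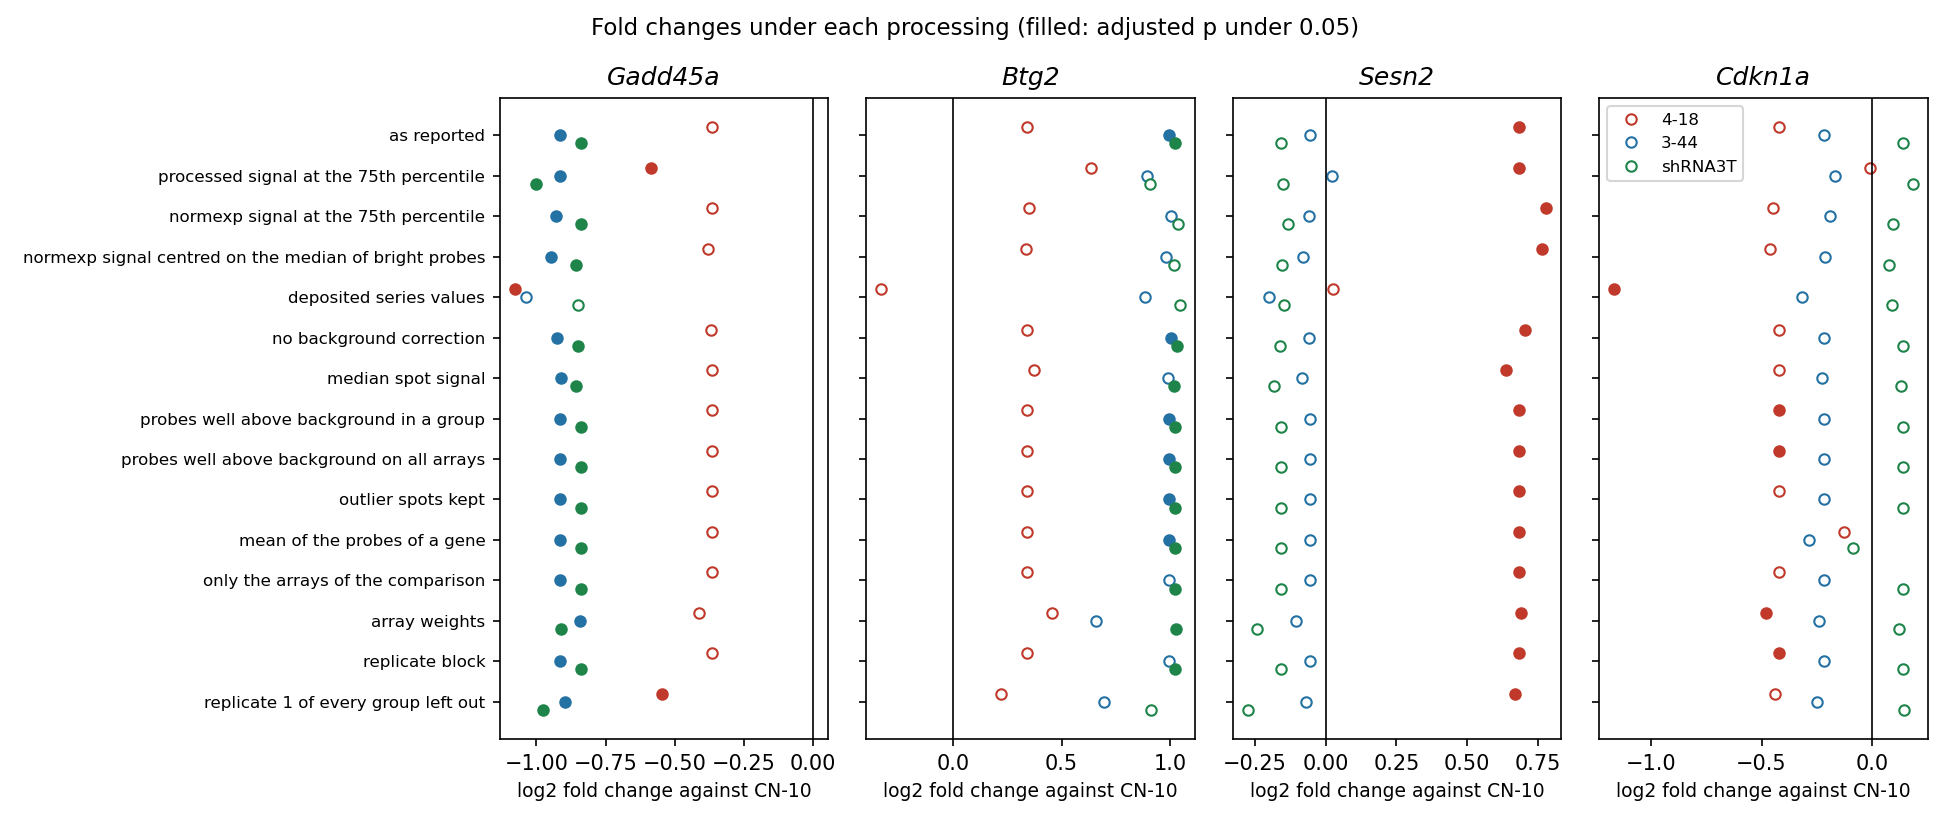
Log2 fold change from CN-10 (horizontal axis) of Gadd45a, Btg2, Sesn2 and the brighter Cdkn1a probe in each silenced group, as reported and under 14 other ways of processing the arrays, with filled points for an adjusted p under 0.05. Gadd45a stays below 0 in 3-44 and shRNA3T and Sesn2 stays above 0 in 4-18, where the unscaled deposited values give 0.03.

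Between the silenced groups, 3 of the 9 members passed in 4-18 against 3-44, beside 22.1% of all probes. Sesn2 and Gadd45a were higher in 4-18 (12.1% of probes) and Bbc3 lower (10%), and Bbc3 alone was past 2-fold (4.81%). In 4-18 against shRNA3T 3 of 9 passed, beside 20.1% of all probes, with Sesn2 and Gadd45a higher (11.2%), the brighter Cdkn1a probe lower (8.94%) and 0 past 2-fold (4.32%). The second Cdkn1a probe went the other way there, higher in 4-18 by 0.48 with no overlap (limma adjusted p = 0.056), and it passed without replicate 1 or 3 of CN-10, replicate 1 of 3-44 or replicate 4 of 4-18 (0.0381 to 0.0465). In 3-44 against shRNA3T, which share the hairpin, limma called 0 of 9, beside 10.6% of all probes (2% past 2-fold), and 2 had an unadjusted p under 0.05, the brighter Cdkn1a probe (-0.36, adjusted p = 0.175) and Bbc3 (adjusted p = 0.101). The groups did not overlap for 3, 4 and 1 members in these comparisons, beside 21.4%, 22.2% and 21.8% of probes. Cdkn1a passed in 3-44 against shRNA3T when replicate 3 of 4-18, which bears on it through the shared spread, was left out (adjusted p = 0.0353).

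Across the 16 arrays the members did not move as one block. The brighter Cdkn1a probe and Ccng1 had a Pearson correlation of 0.69 (-0.30 for the second Cdkn1a probe). For deviations from the group means the 0.69 became 0.76. The brighter Mdm2 probe and Bbc3 had 0.64 (-0.40 for the second Mdm2 probe), the second probes of Cdkn1a and Mdm2 had 0.80, and Btg2 and Gadd45a had -0.67. For deviations from the group means the last 3 of these pairs had 0.46, 0.64 and -0.03. The genes most like the brighter Cdkn1a probe over the 16 arrays, among 12588 probes above background on all of them and with a value on each, were Mkl1 (0.874), Kpna4 (0.867) and Wdr46 (0.865). Those most like the brighter Mdm2 probe over 15 arrays were Srsf11 (0.88), Hrsp12 (0.83) and Cbfb (0.828). The arrays share slides, groups and normalization, and these values are descriptions.

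The rest of the pathway was read through 84 further genes in 6 lists, of which 76 were on the array. In 4-18, 19 rose and 15 fell, in 3-44 6 and 3, and in shRNA3T 9 and 12, with medians of 0.04, 0.03 and -0.01. Of all probes, 11.6% were higher and 12% lower in 4-18, 3.48% and 4.37% in 3-44, and 5% and 6.85% in shRNA3T. The sharpest group difference was in the 11 measured cell cycle genes that p21 and its partners repress. In shRNA3T 9 of them fell and 0 rose (median -1.11), in 4-18 6 fell and 0 rose (median -0.53), and in 3-44 none passed (median 0.04), beside 6.85%, 12% and 4.37% of all probes called lower. 3-44 was above shRNA3T for 9 of the 11, with a median difference of 1.11. In that comparison 10.6% of all probes passed in either direction. Both groups carried shRNA3, but they differed as clone and pool, in the further G418 of the clone and in slide. These differences cannot be told apart. In shRNA3T the 2 Cdkn1a probes differed from CN-10 by 0.14 (limma adjusted p = 0.701) and -0.31 (0.295). A link to the cell cycle genes was not tested. Over the other processings 5 to 9 of the cell cycle genes fell in 4-18, 0 to 2 in 3-44 and 6 to 10 in shRNA3T.

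Of these cell cycle genes, Ccna2, cyclin A2 of S phase, fell by 2.41 on the log2 scale in shRNA3T (limma adjusted p = 3.536e-08) and fell by 1.29 in 4-18 (5.877e-06), with -0.41 in 3-44 (0.0831). Ccnb1, the mitotic cyclin B1, fell by 1.14 in shRNA3T (adjusted p = 0.000767) and fell by 1.98 in 4-18 (1.977e-06), with 0.33 in 3-44 (0.376). Top2a, the topoisomerase that untangles replicated chromosomes, fell by 1.59 in shRNA3T, and Birc5, survivin, fell by 1.32 there, while in the stable clones neither passed with all arrays. Birc5 passed in 4-18 without replicate 1 of 3-44 (-0.34, 0.0306) or replicate 3 of 4-18 (-0.41, 0.0429), and over 14 other processings both passed in 3 in 4-18 and Birc5 in 1 in 3-44. Pcna, the sliding clamp that is listed among arrest and repair targets, fell by 1.13 in shRNA3T (adjusted p = 0.018) and fell by 0.91 in 4-18 (0.0322). The Pcna calls were lost without replicate 2, 3 or 4 of CN-10 or replicate 1 of the silenced group (adjusted p 0.0785 to 0.0884 in 4-18, where the difference was -0.58 without its replicate 1, and 0.0525 to 0.0598 in shRNA3T).

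**Figure D4:**
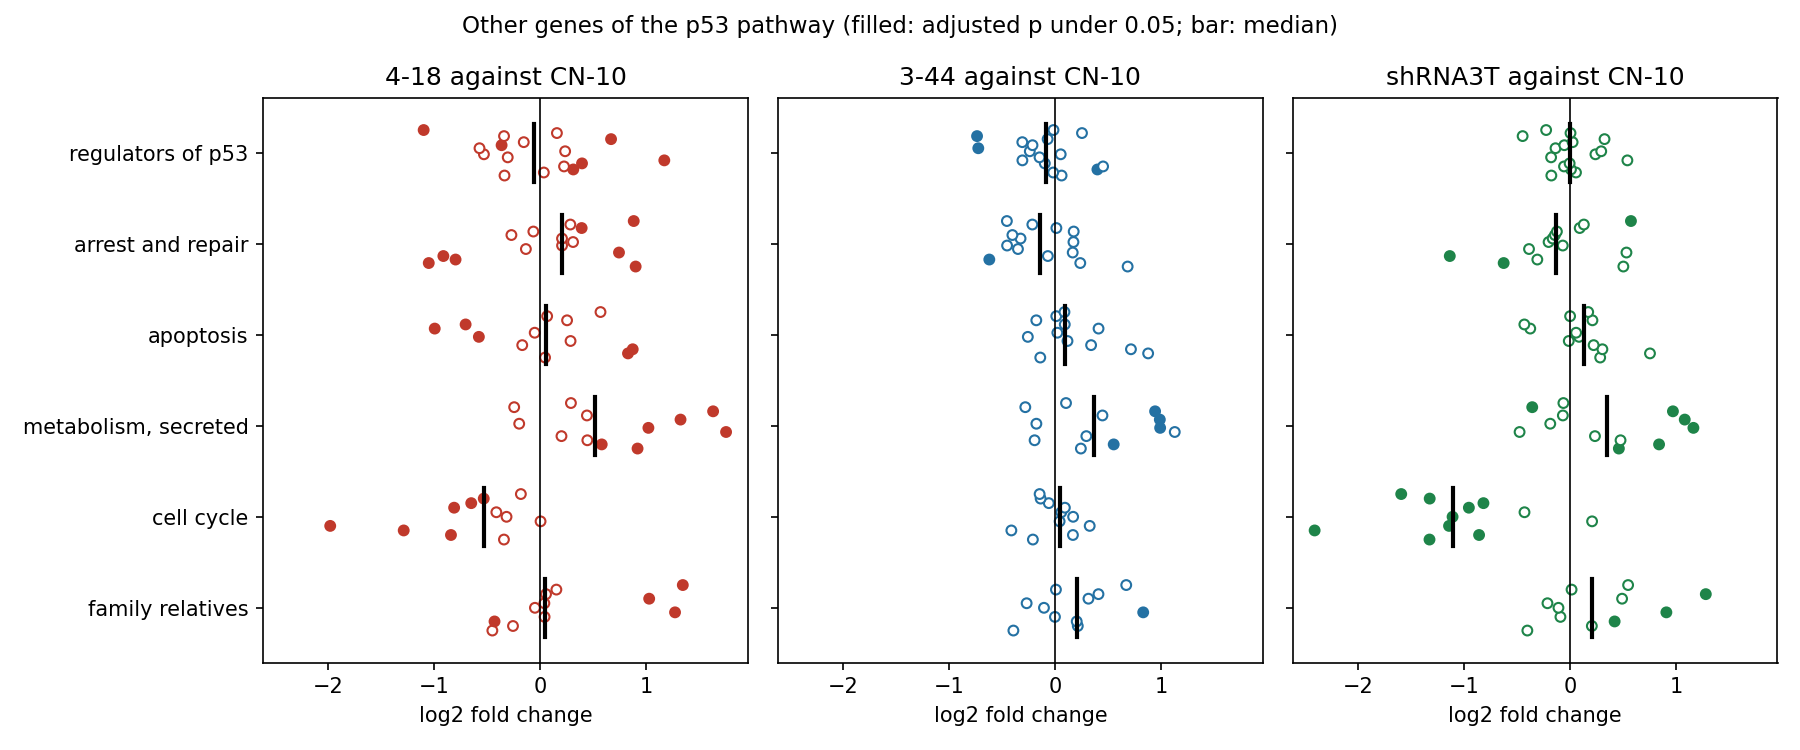
Log2 fold change from CN-10 (horizontal axis) of each measured gene of the 6 p53 pathway lists in 4-18, 3-44 and shRNA3T; filled points passed the test and bars mark the list medians. The cell cycle list has medians of -0.53, 0.04 and -1.11 in the 3 groups, and the metabolic and secreted targets 0.51, 0.37 and 0.35.

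Of 12 metabolic and secreted targets measured, 6 rose in 4-18 and 0 fell, 4 rose in 3-44 and 0 fell, and 5 rose in shRNA3T and 1 fell (medians 0.51, 0.37 and 0.35), beside 11.6%, 3.48% and 5% of all probes called higher. Lpin1, lipin 1, a phosphatidate phosphatase that also promotes fatty acid oxidation, rose by 1.32 in 4-18 (limma adjusted p = 3.181e-06), 0.99 in 3-44 (0.000204) and 1.08 in shRNA3T (5.314e-05). Gls2, the liver glutaminase, rose by 1.02 (0.00196), 0.99 (0.00716) and 1.17 (0.00148). Gdf15, a stress-induced secreted factor, rose by 1.75 in 4-18 (0.002), with 1.13 in 3-44 (0.0691) and -0.47 in shRNA3T (0.508). In 3-44 Gdf15 passed without replicate 2 of 4-18 (0.0258) and in 4 of 14 other processings. Over the other processings 2 to 9 of these genes rose in 4-18, 0 to 6 in 3-44 and 0 to 6 in shRNA3T. Leaving out 1 array gave 6 to 8, 3 to 4 and 3 to 5 risen, and 0 to 1 fallen in each group.

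Among relatives of the members, Gadd45b, a sister of Gadd45a, rose by 1.03 in 4-18 (limma adjusted p = 0.0024), and Gadd45g rose by 1.28 in shRNA3T (1.879e-05), with 0.41 in 3-44 (0.0895). Gadd45g differed by 0.05 in 4-18, which became -0.68 on the unscaled values. Ccng2, the relative of Ccng1, rose in all 3 groups by 1.27, 0.83 and 0.91. Sesn3 rose by 1.34 in 4-18 (0.0253), a call lost without replicate 1 or 3 of CN-10 or replicate 3 or 4 of 4-18 (0.0643 to 0.0877). Of 11 relatives 3 rose and 1 fell in 4-18, 1 rose in 3-44 and 3 rose in shRNA3T, beside 23.6%, 7.85% and 11.9% of all probes past the test in either direction. Leaving out 1 array gave 2 to 3 risen and 0 to 2 fallen in 4-18, and the other processings gave 0 to 6 and 0 to 3.

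The remaining lists had no common direction. Of 16 measured regulators of p53, 4 rose and 2 fell in 4-18 (23.6% of all probes passed), 1 rose and 2 fell in 3-44 (7.85%), and none passed in shRNA3T (11.9%). Leaving out 1 array gave 2 to 4 fallen in 4-18 and 1 to 2 in 3-44. Hipk2, a kinase that activates p53, rose by 1.17 in 4-18 (limma adjusted p = 0.000257), and Usp7, a deubiquitinase of MDM2 and p53, fell by 1.10 there (0.000174). Of 14 arrest and repair targets, 4 rose and 3 fell in 4-18, 1 fell in 3-44, and 1 rose and 2 fell in shRNA3T, beside the same shares. The fall in 3-44 ran from 0 to 4 genes over other processings and from 0 to 3 on leaving out 1 array. Fancc, a Fanconi anaemia repair protein, fell by 1.05 in 4-18 (0.00013) and fell by 0.62 in shRNA3T (0.0143), the latter lost without replicate 4 of shRNA3T (0.0515). Of 12 apoptosis targets, 2 rose and 3 fell in 4-18 and none passed in the other comparisons with CN-10, and no apoptosis target of the list passed with a 2-fold change against CN-10. Leaving out 1 array gave 0 to 3 risen and 2 to 3 fallen in 4-18. Over the other processings the number risen in 4-18 ran from 0 to 5 apoptosis targets, 0 to 5 regulators and 0 to 6 arrest and repair targets.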

How the data were processed

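RNA of 16 samples, 4 per group, was measured on one-color arrays, 1 sample per array. The authors deposited the Feature Extraction 10.7.3.1 output, with spot and local background intensity on a linear scale and not normalized, on an array grid placed on rn4 per the file headers. A further table of log2 values deposited by the authors, once decimal points were restored, equalled log2 of the normexp-corrected median signal with no scaling between arrays (largest difference 4e-11). Depth does not apply to arrays, and 4 per group limit the precision. From the mean spot intensities, background was corrected by normexp (offset 50), control spots were left out, quantile normalization was applied between arrays on the log2 scale, outlier spots were dropped, and repeated spots were averaged per probe. limma 3.58.1 in R 4.3.3, with data.table in version 1.17.8, fitted 1 mean per group over all 16 arrays and 30367 probes. A probe passed with a Benjamini-Hochberg adjusted p under 0.05 over all probes of a comparison. Two-sided exact permutation of 4 arrays against 4 cannot give a p below 0.0286. On simulated data with 200 of 29317 probes changed, 188, 194 and 184 were recovered for 4-18, 3-44 and shRNA3T against CN-10, with 11, 13 and 9 wrongly called. The planted changes were 2-fold or larger, with independent noise and no slide or replicate effect. Of those planted at 2-fold, 55 of 67, 57 of 63 and 63 of 75 were recovered. Smaller changes, such as most of those of the members, were not simulated.

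Members and gene lists were chosen with earlier results of these data known. Named genes were all members, Pdrg1, up to 4 genes per list with the largest change past the 2-fold limit against CN-10, and the 3 genes most correlated with Cdkn1a and with Mdm2. The brightest probe stood for a gene with several. For 2 genes that the rule names, values are left out. Alternatives were other signals, background corrections, scalings, filters, fold limits, array weights, a replicate block and leaving out arrays. Exon and UTR positions are not stated, because no annotation of rn4 was used.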

Additional observations from a re-analysis of the deposited data

Results flagged for a closer look

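Within groups of 4 arrays, 10 of 117 groups tested held a sample set apart from the other three by more than Dixon's 95% limit for the gap over the range, where chance alone gives about 1 in 20. Among the members these were the brighter Cdkn1a probe in replicate 3 of 4-18, at 13.04, and the second Mdm2 probe in replicate 1 of shRNA3T, at 9.87. For Pdrg1 it was replicate 1 of 4-18 (11.57), of 3-44 (11.89) and of shRNA3T (12.39), the lowest reading of each silenced group. Among the other named genes it was Pcna in replicate 1 of CN-10 (13.37) and of 4-18 (12.19), Sesn3 in replicate 1 of 3-44 (7.95), Gdf15 in replicate 3 of shRNA3T (12.5) and Usp7 in replicate 1 of shRNA3T (10.86).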

How the results depend on the processing

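The limits are the 4 arrays per group, slides that cannot be told apart from groups, so that a fit with slide as a block could not be run, and the dim 4-18 arrays, for which the median of all probes against CN-10 was 0.01 as reported and 0.20, 0.86, 0.85 and 0.15 with the processed signal, normexp scaled to the 75th percentile, scaling on bright probes and the unscaled deposited values; the share of higher calls there was 49.2%, against 50.7%, 89.9%, 89.5% and 7.36%. Reported counts of members past the test were 1, 2, 2, 3, 0 and 3 for 4-18, 3-44 and shRNA3T against CN-10 and for 4-18 against 3-44, 3-44 against shRNA3T and 4-18 against shRNA3T. The cause of the following shifts was not tested. With the processed signal they became 3 (4-18), 1 (3-44), 1 (4-18 against 3-44, with 0 at 2-fold) and 1 (4-18 against shRNA3T). With normexp scaled to the 75th percentile, and again with scaling on bright probes, they became 2 (4-18), 1 (3-44) and 1 (shRNA3T, 0 at 2-fold), with 1 at 2-fold in 4-18 against shRNA3T. With the deposited values they became 4 (4-18, 3 at 2-fold), 0 (3-44), 0 (shRNA3T, 0 at 2-fold), 5 (4-18 against 3-44, 4 at 2-fold) and 5 (4-18 against shRNA3T, 4 at 2-fold). No background correction gave 1 at 2-fold in 3-44, the median spot signal gave 1 in 3-44, both filters on dim probes gave 2 in 4-18, and array weights gave 2 in 4-18, 1 in 3-44 and 1 in 3-44 against shRNA3T. Over all these processings the count in shRNA3T against CN-10 ran from 0 to 3. A 1.5-fold limit gave 1, 2 and 2 against CN-10, 2 in 4-18 against 3-44 and 1 in 4-18 against shRNA3T. Without replicate 1 of every group, added after seeing the data, there were 2 (4-18), 1 (3-44), 1 (shRNA3T, 0 at 2-fold) and 0 at 2-fold in 4-18 against 3-44. Leaving out each array gave 1 to 2, 1 to 2, 1 to 2, 3 to 4, 0 to 1 and 2 to 4 in the order above, and at 2-fold 0 to 0, 0 to 1, 0 to 1, 0 to 1, 0 to 0 and 0 to 0.

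Among values past the test before or after the change, signs reversed for Perp with normexp scaled to the 75th percentile or on bright probes. These gave 0.98 and 0.97 in 4-18 against CN-10, and 1.24 and 1.25 against shRNA3T. With the processed signal the sign of Perp in 4-18 against CN-10 was kept (-0.76). On the deposited values such signs reversed for the second Mdm2 probe (-0.16) and Gadd45g (-0.68) in 4-18 against CN-10, for the second Cdkn1a probe (-0.10) and Gadd45a (-0.0403) in 4-18 against 3-44, and for Gadd45a (-0.23) in 4-18 against shRNA3T. Uncalled values that changed sign in 4-18 against CN-10 on the deposited values were Btg2 (-0.33), the second Cdkn1a probe (-0.56) and Perp (0.26).

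Same-numbered arrays deviated together in part, most clearly those of replicate 1, and the reported fit had no replicate term. Over 24 such pairs the correlation of deviations ran from -0.125 to 0.498, with 15 over 0.1. The 6 pairs of replicate 1 lay at 0.192 to 0.498, and 8 of 16 arrays correlated best with their own number. With replicate number as a block, 2 members passed in 4-18 and 1 in 3-44. Under the block Btg2 in 3-44 was no longer past the test (adjusted p = 0.0631). Against CN-10 the test was newly passed by the brighter Cdkn1a probe (0.0456) and Birc5 (0.0479) in 4-18, the second Mdm2 probe in shRNA3T (0.0296) and Pdrg1 in 4-18 (0.0175), 3-44 (0.0108) and shRNA3T (0.0183). In 4-18 against shRNA3T the second Cdkn1a probe (0.0205) and Ccng1 (0.0403) newly passed.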
